A study of Mus musculus with 21 samples.

Results

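The fibroblast growth factor (FGF) genes described here are 6 ligand genes (Fgf1, Fgf2, Fgf7, Fgf10, Fgf18 and Fgf21) and 4 receptor genes (Fgfr1, Fgfr2, Fgfr3 and Fgfrl1). They were taken by gene name from a table of 45706 genes, and all 10 were found. Of the 15230 genes with enough counts to be tested 8 were members, while Fgf1 and Fgf18 fell below the filter. The RNA came from mouse mammary fibroblasts in culture, as 21 libraries that form 7 groups of 3. CAF were fibroblasts of mammary carcinomas from MMTV-PyMT mice, in which a viral promoter drives a viral oncogene in the mammary epithelium, and were measured with siHsp90aa1, with siHsp90ab1 and with control siRNA, each in vehicle. NF were fibroblasts of normal mammary glands from FVB/n mice, and were measured with siHsp90aa1 and TGFb1, with siHsp90ab1 and TGFb1, with control siRNA and TGFb1, and with control siRNA and vehicle. Every library came from transfected cells, given a pool of siRNAs at 100 nM at 60% confluence in medium with 10% serum. TGFb1, at 5 ng/mL where it was used, was added 5 h after transfection for 43 h, and RNA was taken at 48 h. Hsp90aa1 and Hsp90ab1 encode the 2 forms of HSP90 in the cytosol, a chaperone of many kinases and receptors. The labels name a single numbered line of each kind of fibroblast and do not give the age of the animals, so differences between CAF and NF are those between 2 lines. They number the libraries of a group as batches and do not say that these were separate cultures from separate animals, so the p-values rest on a spread that may be technical.

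FGF ligands are secreted proteins that, with heparan sulphate chains on the cell surface, join pairs of receptor tyrosine kinases and switch on the RAS-ERK cascade. Mesenchymal cells make Fgf7 and Fgf10, which act mainly on the epithelial form of Fgfr2, and in the mammary gland Fgf10 and Fgfr2 are needed for the bud and for branching. Fgf2 acts on fibroblasts and endothelium through Fgfr1, and Fgf21 is a hormone-like ligand that signals through Fgfr1 together with the co-receptor Klb.

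Promoter windows of RefSeq (build GRCm38.p6, 250 bases before to 50 bases after a start) matched 8 of the 10 members, all but Fgf1 and Fgfr1. The stretches below belong to the 3 of the 6 ligand genes with the largest log2 fold changes with TGFb1. Positions before a start refer to the RefSeq start, and for Fgf2 and Fgf10 the stretch lies within the longer GENCODE gene model whose bounds are given with their values. In the stretch of Fgf2 (chr3:37348436-37348464, plus strand) the capitals mark CAGAC, the core of the SMAD-binding sequence, with 12 bases on each side.
Fgf2: ccctccccagttCAGACcctctgttaaaa
The 250 bases before the RefSeq start of Fgf10 (chr13:118714449-118714698, plus strand) held no match to the motifs searched, and the 50 bases after it held none.
Fgf10: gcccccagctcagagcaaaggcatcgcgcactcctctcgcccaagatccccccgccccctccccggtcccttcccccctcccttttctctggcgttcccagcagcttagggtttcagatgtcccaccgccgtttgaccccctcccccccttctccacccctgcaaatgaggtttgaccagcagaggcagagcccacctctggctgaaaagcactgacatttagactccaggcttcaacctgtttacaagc
In the 250 bases before the start of Fgf21 (chr7:45615491-45615740, minus strand) the capitals mark TTGCATCA, a composite site for C/EBP and ATF factors.
Fgf21: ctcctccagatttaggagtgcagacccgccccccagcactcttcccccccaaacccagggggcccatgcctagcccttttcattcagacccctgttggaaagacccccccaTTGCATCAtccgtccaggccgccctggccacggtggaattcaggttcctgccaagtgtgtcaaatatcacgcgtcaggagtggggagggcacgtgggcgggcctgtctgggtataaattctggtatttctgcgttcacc
Both strands were searched for CAGAC, for TGANTCA (the AP-1 site) and for TTGCATCA. CAGAC was found once in the Fgf2 window, once in that of Fgf7, 2 times in that of Fgf18 and 4 times in that of Fgf21. It stands in 49.6% of 32851 mouse promoter windows of the same length. TGANTCA stands in 7.81% of them and in no member's window. TTGCATCA stands in 0.895% of them and in the window of Fgf21 alone among the members with a window. These are matches of letters, and binding was not measured.

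The shallowest library held 35087180 estimated counts and the deepest 70421576. Each siRNA lowered its own target: Hsp90aa1 fell to 10.0% of its control level in CAF and to 12.4% in NF with TGFb1, and Hsp90ab1 fell to 9.96% in CAF and to 13.3% in NF with TGFb1. Hsp90aa1 itself averaged 48.1% of its control level in NF given siHsp90ab1 (adjusted p = 0.0722 by edgeR and 0.0115 by DESeq2), and 47.6% in CAF given it (0.123 by edgeR and 0.0181 by DESeq2). Of 9 fibroblast markers the collagen genes, Vim and the PDGF receptor genes were present in every library. Thy1 averaged 190 ± 9.89 CPM (counts-per-million, TMM-normalised) in CAF controls, against 0.285 ± 0.245 CPM in NF with vehicle (SD, n = 3 each), and Dcn averaged 16.7 ± 5.72 CPM against 397 ± 61.6 CPM. Thy1 was thus all but absent from NF in vehicle, and Lum stayed at or under 1.31 CPM in every library. The summed level of 7 epithelial markers ran from 0.4 to 22.2 CPM, at its highest nearly all Krt19 in CAF, with Epcam at most 0.133 CPM. That of 5 endothelial markers ran from 0.305 to 14.2 CPM, at its highest nearly all Kdr, with Cldn5 at 0, and that of 5 immune markers from 2.41 to 8.5 CPM, with Ptprc at most 0.0865 CPM. Adipocyte markers summed to at most 0.778 CPM, pericyte markers to 5.91 CPM and glial markers to 3.33 CPM, with Sox10 at 0. The part of other cell types in the results was not tested, and a change in the number of cells of a type and in RNA per cell cannot be told apart in bulk RNA.

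Per transcript length, Fgf7 was the main ligand mRNA and Fgfr1 the main receptor mRNA in all 7 groups. In TPM (transcripts-per-million, from the authors), Fgf7 stood at 150, 106 and 100 in NF with TGFb1 and at 233, 173 and 193 in NF with vehicle. It stood at 295, 269 and 163 TPM in CAF controls. Its share of the summed TPM of the 6 ligands was 77.2% ± 1.79 in NF with TGFb1 and 85.9% ± 1.54 in CAF controls, against 95.8% ± 0.616 in NF with vehicle (SD, n = 3 each). The ligands beside Fgf7 differed between these groups. Fgf2 made up 18.6% ± 0.722 of the summed TPM of the 6 ligands in NF with TGFb1 and 2.62% ± 0.718 in CAF controls, against 0.300% ± 0.131 in NF with vehicle. Fgf10 made up 1.48% ± 0.580 of that sum in NF with TGFb1 and 10.5% ± 1.64 in CAF controls, against 3.73% ± 0.713 in NF with vehicle. Fgf10 reached its largest share, 16.2% ± 1.75, in CAF with siHsp90aa1. Fgf1 and Fgf18 had at most 12 and 13 counts in any library and were not tested.

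**Figure D1:**
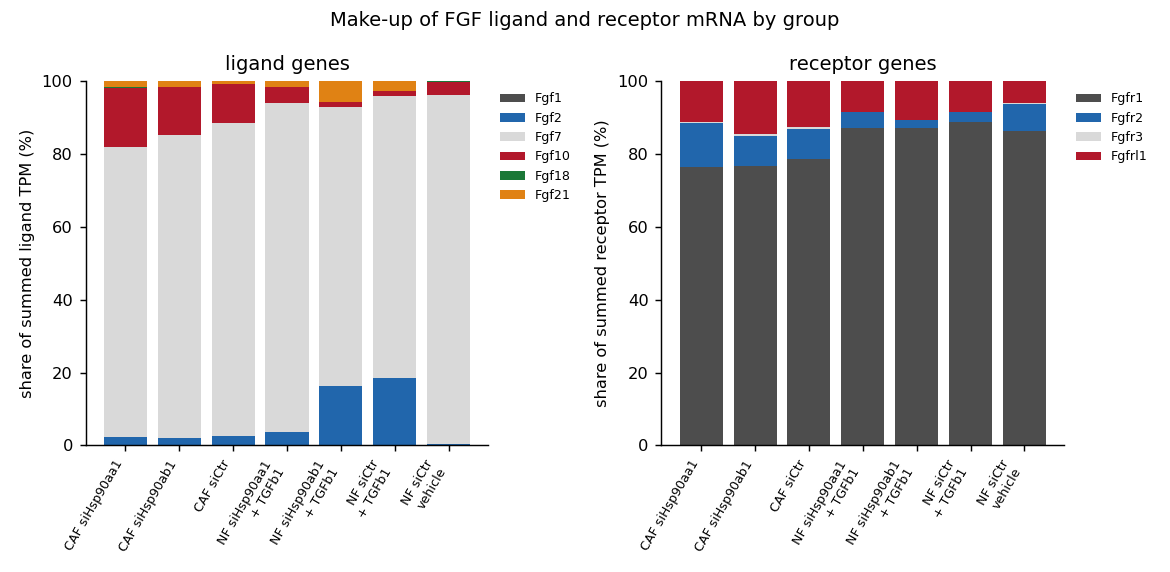
Stacked bars give the mean share, in percent, of each gene in the summed TPM of 6 ligand genes (left) and of 4 receptor genes (right) in the 7 groups of 3 libraries. Fgf7 and Fgfr1 make up most of each bar; Fgf2 is widest in NF with TGFb1 (18.6%) and NF with TGFb1 and siHsp90ab1 (16.3%), and Fgf10 is widest in CAF with siHsp90aa1 (16.2%).

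TGFb1 is a cytokine that turns fibroblasts into contractile, matrix-making cells, and its effect was read in NF with control siRNA. It raised Fgf2, Fgf21, Fgfr1 and Fgfrl1 and lowered Fgf10, Fgf7 and Fgfr2. That is 7 of 8 tested members, against 29% of all tested genes called at an adjusted p under 0.05 (edgeR's quasi-likelihood test with Benjamini-Hochberg adjustment over 15230 genes, as in all comparisons below). The 7 include Fgf21, which passed the filter through groups other than NF with vehicle. The opposite changes of Fgf2 and Fgf10, both among the 7, were known when the members were chosen. Their p-values in this comparison are thus no independent support.

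Fgf2 (ENSMUSG00000037225, chr3:37348346-37410108) measured 95.7, 68.1 and 60.1 CPM in NF with TGFb1, against 3.13, 1.84 and 0.820 CPM in NF with vehicle. Every treated library lay far above every vehicle library. The log2 fold change was 5.25 ± 0.60 (SE, adjusted p = 3.6e-06), given as a description because it was known when the members were chosen. Fgf21 (ENSMUSG00000030827, chr7:45613886-45615490) went the same way from a level near 0, with 79, 86 and 69 counts in NF with TGFb1 against 5, 4 and 0 counts in NF with vehicle. Its log2 fold change was 4.84 ± 0.53, a size that rests on the few vehicle counts and ran from 4.26 to 5.27 when single libraries were left out. Fgf21 passed the filter through groups other than NF with vehicle, so this change is given as a description. Klb, its co-receptor gene, was among the FGF family genes below the filter.

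Fgf10 (ENSMUSG00000021732, chr13:118669791-118792115) measured 3.55, 5.20 and 5.31 CPM in NF with TGFb1, against 17.6, 15.7 and 18.6 CPM in NF with vehicle. The groups did not overlap, and the level fell to 27.1% of that in vehicle, a log2 fold change of -1.88 ± 0.16 (adjusted p = 1.2e-07). This fall too was known when the members were chosen and is given as a description. Fgf7 (ENSMUSG00000027208, chr2:126034658-126091185), the other epithelium-directed ligand, measured 152, 100 and 95.5 CPM with TGFb1, against 254, 159 and 174 CPM with vehicle. It fell by 0.75 ± 0.25 on the log2 scale (adjusted p = 0.03). This call was lost without replicate 1 of NF with vehicle (adjusted p = 0.154) or without replicate 2 or 3 of NF with TGFb1 (adjusted p = 0.105 and 0.12) and in a fit of these groups alone (0.0501), while with the replicate number as a block the adjusted p was 0.000244. In pairs of the same replicate number Fgf7 was lower with TGFb1 by 0.74, 0.67 and 0.86 on the log2 scale, and so in 3 of 3 pairs.

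Among the receptors, Fgfr1 (chr8:25513654-25575718) measured 636, 623 and 594 CPM in NF with TGFb1, against 421, 457 and 440 CPM in NF with vehicle. The groups were apart, with a log2 fold change of 0.49 ± 0.10 (adjusted p = 0.00134). Fgfr2 (chr7:130162451-133123350) measured 13.9, 15.6 and 17.8 CPM with TGFb1, against 34.0, 35.1 and 34.6 CPM with vehicle. It fell to 45.6% of the vehicle level (log2 fold change -1.13 ± 0.13, adjusted p = 4.0e-06). Fgfrl1, which lacks the kinase domain and binds FGFs without the usual signal, measured 26.2, 30.8 and 30.4 CPM with TGFb1, against 13.4, 17.5 and 13.1 CPM with vehicle. It rose by 1.00 ± 0.15 on the log2 scale (adjusted p = 6.4e-05). Fgfr3 was scarce, with 0.422, 0.455 and 0.445 CPM with TGFb1, against 0.662, 0.966 and 0.420 CPM with vehicle, and did not pass (adjusted p = 0.135, and 0.0334 without replicate 3 of NF with vehicle).

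The balance of the receptors moved with these changes. The TPM of Fgfr1 was 37.8, 35 and 30.9 times that of Fgfr2 in NF with TGFb1, against 10.6, 12 and 12.6 times in NF with vehicle. The gene model of Fgfr2 in GENCODE vM21 spans 2960900 bases and runs across many other genes, among them Ate1 and Oat on the same strand, so its estimated count is less certain than that of the other members. Counts per gene do not separate the epithelial from the mesenchymal form of Fgfr2. Fgf2 overlaps Nudt6 on the other strand by 5199 bases. Nudt6 measured 1.64, 1.75 and 1.52 CPM with TGFb1, against 1.46, 1.28 and 2.21 CPM with vehicle, and was called in none of the 11 comparisons.

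**Figure D2:**
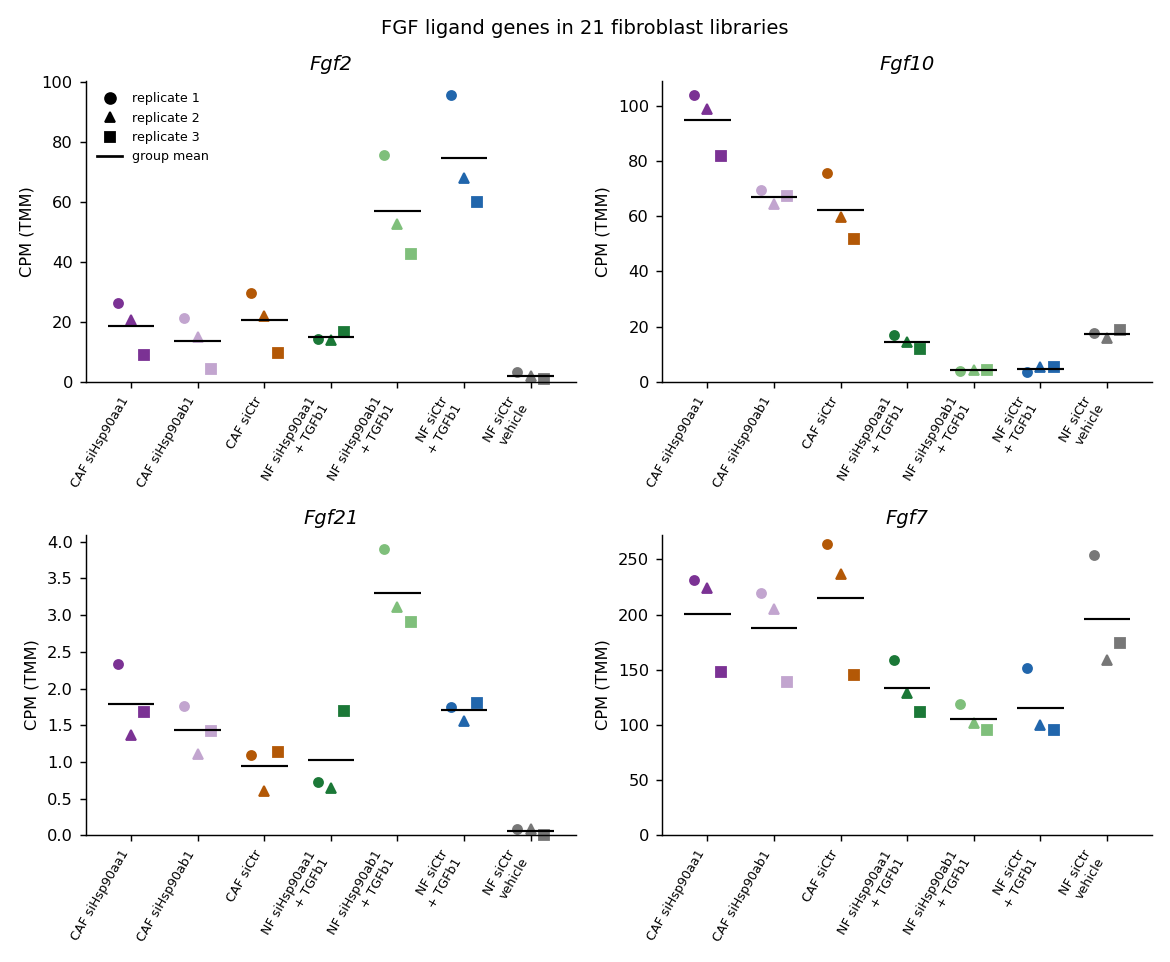
Each panel shows a ligand gene, with TMM-normalised CPM on the y axis, the 7 groups on the x axis, a symbol per library (its shape gives the replicate number) and a bar at the group mean. Fgf2 is highest in NF with TGFb1 (60.1 to 95.7 CPM) and lowest in NF with vehicle (0.820 to 3.13 CPM), whereas Fgf10 is highest in CAF with siHsp90aa1 (82.0 to 104 CPM).

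CAF were compared with NF in control siRNA and vehicle. CAF controls had more Fgf2, Fgf21, Fgf10, Fgfr3 and Fgfrl1 and less Fgfr1 and Fgfr2. Here 7 of 8 tested members were called, in a comparison where 61.6% of all tested genes were called. The 7 again include Fgf21. Fgf2 measured 29.7, 22.1 and 9.61 CPM in CAF controls, against 3.13, 1.84 and 0.820 CPM in NF with vehicle. All CAF libraries were higher, with a log2 fold change of 3.39 ± 0.57 (adjusted p = 5.2e-05). Fgf10 measured 75.6, 59.6 and 51.7 CPM in CAF controls, against 17.6, 15.7 and 18.6 CPM in NF with vehicle. It was 3.60 times as high in CAF (log2 fold change 1.85 ± 0.15, adjusted p = 8.9e-09). Fgf2 and Fgf10 thus both stood higher in CAF than in NF with vehicle, while with TGFb1 they moved in opposite directions in NF. These comparisons share the NF libraries in vehicle, which gave the TGFb1 changes known when the members were chosen.

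Fgf21 had 74, 21 and 59 counts in CAF controls, against 5, 4 and 0 counts in NF with vehicle. The log2 fold change was 4.0 ± 0.54, and 3.41 without replicate 3 of NF with vehicle. This too is given as a description, as Fgf21 passed the filter through groups other than NF with vehicle. Fgf7 measured 264, 237 and 145 CPM in CAF controls, against 254, 159 and 174 CPM in NF with vehicle. These ranges overlapped, and no difference was called (adjusted p = 0.643).

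Fgfr1 measured 302, 272 and 278 CPM in CAF controls, against 421, 457 and 440 CPM in NF with vehicle. The groups were apart, and Fgfr1 was lower in CAF by a log2 fold change of -0.63 ± 0.10 (adjusted p = 3.4e-05). The smaller receptor differences were less secure. Fgfr2 measured 25.4, 24.3 and 31.8 CPM in CAF controls, against 34.0, 35.1 and 34.6 CPM in NF with vehicle (log2 fold change -0.35 ± 0.13, adjusted p = 0.0265). The call was lost without CAF replicate 1 (adjusted p = 0.0704), without CAF replicate 2 (0.0869) and with no filter on low counts (0.0548). Fgfrl1 measured 25.5, 20.3 and 16.8 CPM in CAF controls, against 13.4, 17.5 and 13.1 CPM in NF with vehicle, and these ranges overlapped. Its log2 fold change of 0.51 ± 0.15 (adjusted p = 0.00588) was no longer called without CAF replicate 1 (0.0774) or in a fit of these groups alone (0.0527). Fgfr3 measured 1.10, 1.01 and 1.41 CPM in CAF controls, against 0.662, 0.966 and 0.420 CPM in NF with vehicle. Its log2 fold change of 0.79 ± 0.28 (adjusted p = 0.0217) was lost without NF replicate 1 (0.0526), NF replicate 3 (0.124) or CAF replicate 3 (0.1), and in a fit of these groups alone (0.0998).

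**Figure D3:**
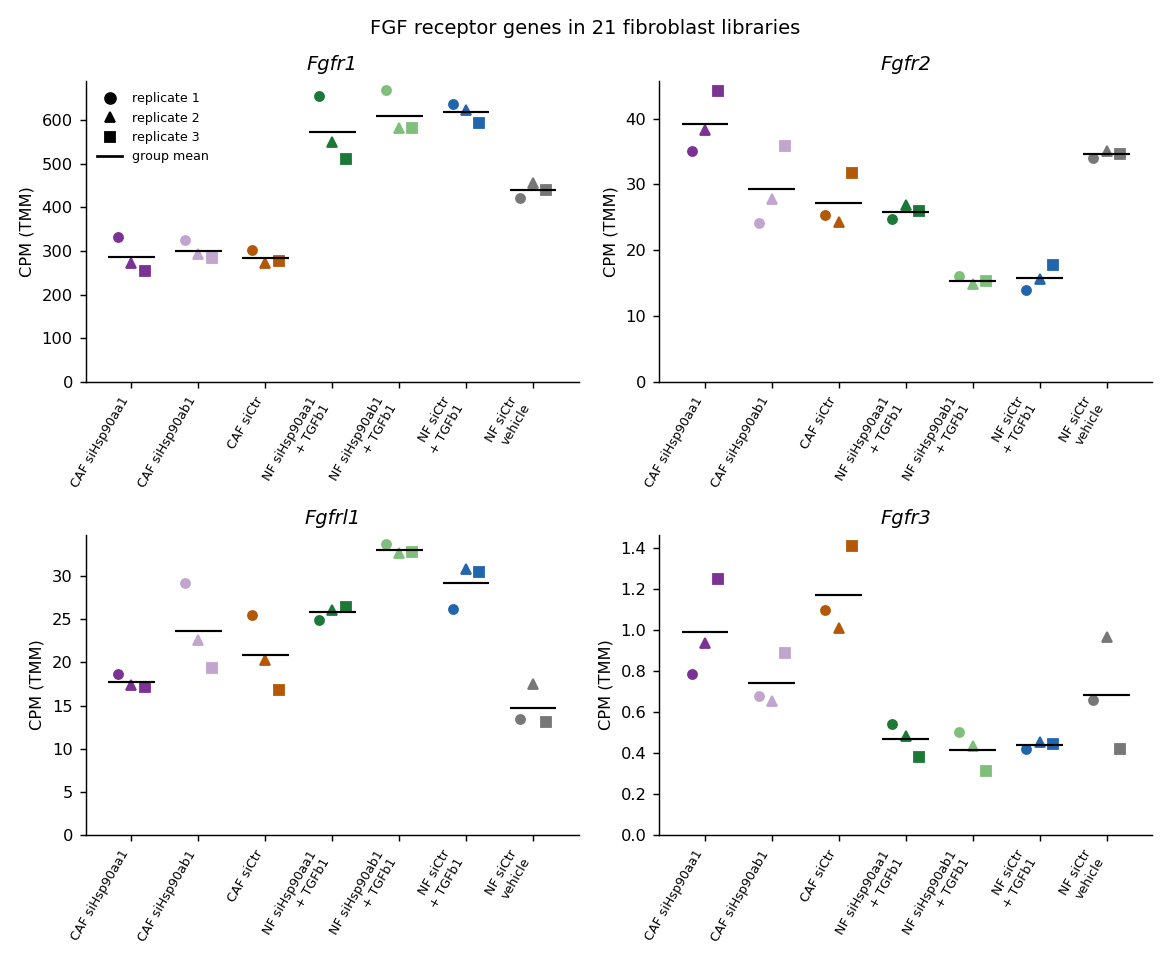
Each panel shows a receptor gene, with TMM-normalised CPM on the y axis, the 7 groups on the x axis, a symbol per library and a bar at the group mean. Fgfr1 is at 511 CPM or more in every NF library with TGFb1 and between 254 and 332 CPM in CAF, while Fgfr2 is at 24.7 to 26.8 CPM in NF with TGFb1 and siHsp90aa1 and at 13.9 to 17.8 CPM in NF with TGFb1.

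In NF with TGFb1, siHsp90aa1 was compared with control siRNA. It lowered Fgf2 and raised Fgf10 and Fgfr2, which are 3 of 8 tested members, against 28.3% of all tested genes. The control libraries are those that gave the TGFb1 changes of Fgf2 and Fgf10 known when the members were chosen. The values of these genes here are thus not independent of that choice. Fgf2 measured 14.4, 14.0 and 16.5 CPM with siHsp90aa1, against 95.7, 68.1 and 60.1 CPM with control siRNA. The groups did not overlap, and Fgf2 fell to 20.1% of the control, a log2 fold change of -2.32 ± 0.51 (adjusted p = 0.00263). Fgf10 measured 16.8, 14.3 and 11.7 CPM with siHsp90aa1, against 3.55, 5.20 and 5.31 CPM with control siRNA. All 3 knockdown libraries were higher, with a log2 fold change of 1.61 ± 0.16 (adjusted p = 4.1e-06). Fgfr2 measured 24.7, 26.8 and 26.0 CPM with siHsp90aa1, against 13.9, 15.6 and 17.8 CPM with control siRNA, and rose by 0.71 ± 0.13 on the log2 scale (adjusted p = 0.000667). The TPM of Fgfr1 was 23.8, 19.8 and 18.0 times that of Fgfr2 with siHsp90aa1, against 37.8, 35 and 30.9 times with control siRNA.

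Fgf21 measured 0.724, 0.649 and 1.69 CPM with siHsp90aa1, against 1.75, 1.56 and 1.81 CPM with control siRNA, so that replicate 3 of the knockdown lay within the control range. The difference did not pass (log2 fold change -0.76 ± 0.39, adjusted p = 0.153), and without that library it was -1.31 (adjusted p = 0.023). Fgf7, with 159, 129 and 112 CPM with siHsp90aa1 against 152, 100 and 95.5 CPM with control siRNA, was not called. Fgfr1, with 656, 550 and 511 CPM with siHsp90aa1 against 636, 623 and 594 CPM with control siRNA, was not called either.

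The knockdown in NF differed between replicate numbers. Hsp90aa1 was lower by 4.06, 3.21 and 2.17 on the log2 scale in replicates 1, 2 and 3 when each was set against the control of the same number. In the same pairs the log2 ratio of Fgf2 was -2.73, -2.28 and -1.86, and that of Fgf10 was 2.23, 1.46 and 1.14. For Fgfr2 it was 0.83, 0.78 and 0.55. In all 3 genes the pair with the deepest knockdown showed the largest change and the pair with the shallowest knockdown the smallest. With 3 pairs the relation was not tested. In CAF the log2 ratio of Hsp90aa1 was -3.03, -3.43 and -3.64, and that of Fgf10 was 0.46, 0.73 and 0.66, without that order.

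**Figure D4:**
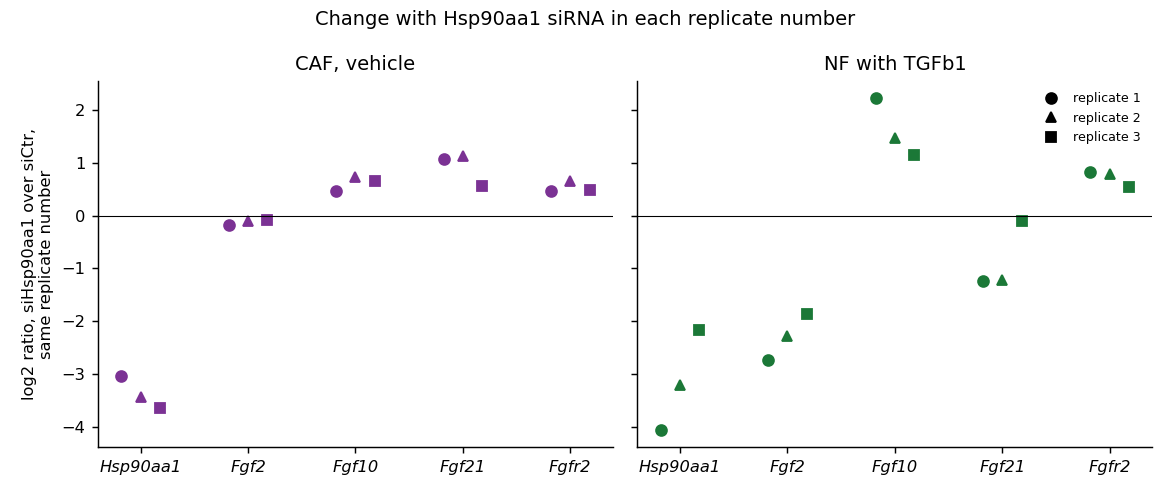
Points give the log2 ratio of siHsp90aa1 over control siRNA between libraries of the same replicate number, for Hsp90aa1 and 4 FGF genes, in CAF (left) and in NF with TGFb1 (right). In NF, Hsp90aa1 lies between -4.06 and -2.17, Fgf2 between -2.73 and -1.86 and Fgf10 between 1.14 and 2.23; in CAF, Fgf2 lies between -0.17 and -0.09.

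NF with TGFb1 and siHsp90aa1 were also set against NF with control siRNA and vehicle. Of 8 tested members 5 were called, 4 higher and 1 lower, against 30.1% of all tested genes. The 4 include Fgf21, which passed the filter through groups other than NF with vehicle. Fgf2 was higher, at 14.4, 14.0 and 16.5 CPM against 3.13, 1.84 and 0.820 CPM (log2 fold change 2.93 ± 0.57, adjusted p = 0.000827). Fgf10, at 16.8, 14.3 and 11.7 CPM against 17.6, 15.7 and 18.6 CPM, overlapped with the vehicle group and was not called (log2 fold change -0.27 ± 0.15, adjusted p = 0.19, 95% interval from -0.57 to 0.02). The vehicle libraries gave the TGFb1 changes of Fgf2 and Fgf10 known when the members were chosen. Neither value is thus independent of that choice. Fgf21 was higher by a log2 fold change of 4.07 ± 0.55, given as a description because of how it passed the filter. Fgfrl1 was higher by 0.82 ± 0.15 (adjusted p = 0.000506). Fgfr1 was higher by 0.38 ± 0.10 (adjusted p = 0.0087) and Fgfr2 was lower, at -0.42 ± 0.13 (adjusted p = 0.0198). Both receptor calls were lost without replicate 1 of NF with TGFb1 and siHsp90aa1 (adjusted p = 0.0647 for Fgfr1 and 0.0694 for Fgfr2). Fgf7 was not called (log2 fold change -0.55 ± 0.25, adjusted p = 0.107), but was once the replicate block was added (-0.55 ± 0.13, adjusted p = 0.00361).

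In CAF, siHsp90aa1 raised Fgf10 and Fgfr2, which are 2 of 8 tested members, against 25.4% of all tested genes. Fgf10 measured 104, 98.8 and 82.0 CPM with siHsp90aa1, against 75.6, 59.6 and 51.7 CPM with control siRNA. Each knockdown library lay above every control library, and the log2 fold change was 0.61 ± 0.15 (adjusted p = 0.00604). Fgfr2 measured 35.1, 38.2 and 44.2 CPM with siHsp90aa1, against 25.4, 24.3 and 31.8 CPM with control siRNA, and rose by 0.53 ± 0.13 on the log2 scale (adjusted p = 0.00614). Fgf2 measured 26.3, 20.6 and 9.01 CPM with siHsp90aa1, against 29.7, 22.1 and 9.61 CPM with control siRNA. These ranges overlapped almost wholly (log2 fold change -0.13 ± 0.49, adjusted p = 0.879, 95% interval from -1.09 to 0.84). That interval comes from the fit without the replicate block. In pairs of the same replicate number the log2 ratio of Fgf2 was -0.17, -0.10 and -0.09. With the block its log2 fold change was -0.12 ± 0.31 (adjusted p = 0.802). Fgf21 measured 2.33, 1.37 and 1.68 CPM with siHsp90aa1, against 1.09, 0.605 and 1.13 CPM with control siRNA. It was higher in 3 of 3 pairs without passing the test (log2 fold change 0.92 ± 0.39, adjusted p = 0.0918), and passed once the replicate block was added (0.93 ± 0.34, adjusted p = 0.042).

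The size of the siHsp90aa1 effect was compared between CAF in vehicle and NF with TGFb1. The fibroblast source and the TGFb1 treatment cannot be told apart in this contrast. It also uses the NF control libraries that gave the TGFb1 changes of Fgf2 and Fgf10 known when the members were chosen. Of 8 tested members 1 was called, against 5.46% of all tested genes. The rise of Fgf10 was smaller in CAF than in NF, by a difference of log2 fold changes of -1.0 ± 0.22 (adjusted p = 0.0118). For Fgf2 the difference of log2 fold changes, CAF minus NF, was 2.19 ± 0.70 (adjusted p = 0.0783), and with the replicate number as a block it was 2.12 ± 0.44 (adjusted p = 0.00501). Without replicate 3 of CAF with siHsp90aa1 it was 2.51 (adjusted p = 0.05). For Fgf21, which was lower with siHsp90aa1 in NF and higher with it in CAF in all pairs, it was 1.68 ± 0.55 (adjusted p = 0.0843) and 1.73 ± 0.48 with the block (adjusted p = 0.026). Without replicate 3 of NF with TGFb1 and siHsp90aa1 it was 2.22 (adjusted p = 0.0179), and DESeq2 called it (1.67, adjusted p = 0.0119).

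No member was called with siHsp90ab1. In CAF 0 of 8 tested members were called by edgeR and 0 by DESeq2, against 0.9% of all tested genes, and in NF with TGFb1 0 of 8 by edgeR and 0 by DESeq2, against 2.69%. At an unadjusted p under 0.05 there was 1 member in CAF, Fgfr3, and 1 in NF, Fgf21. Of all 15230 tested genes 1341 in CAF and 1928 in NF passed that threshold. Fgf21 measured 3.90, 3.11 and 2.90 CPM in NF with TGFb1 and siHsp90ab1, against 1.75, 1.56 and 1.81 CPM with control siRNA. The groups were apart, and the log2 fold change of 0.95 ± 0.37 did not pass over all genes (adjusted p = 0.249), though it did in a fit of these groups alone (adjusted p = 0.0245). Fgf2 measured 75.6, 52.8 and 42.7 CPM in NF with siHsp90ab1, against 95.7, 68.1 and 60.1 CPM with control siRNA (log2 fold change -0.39 ± 0.48, adjusted p = 0.837). Fgf10 measured 4.05, 4.21 and 4.14 CPM in NF with siHsp90ab1, against 3.55, 5.20 and 5.31 CPM (log2 fold change -0.18 ± 0.17, adjusted p = 0.76). In CAF the log2 fold change with siHsp90ab1 was -0.59 ± 0.50 for Fgf2 (adjusted p = 0.866) and 0.11 ± 0.15 for Fgf10 (adjusted p = 0.954). The siHsp90ab1 effect on the members did not differ detectably between CAF and NF, with 0 of 8 called by edgeR, 0 by DESeq2, 0 at an unadjusted p under 0.05 and 0.00657% of all tested genes called.

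A direct comparison of the knockdowns in NF with TGFb1, siHsp90aa1 over siHsp90ab1, called 4 of 8 tested members, against 34.1% of all tested genes. Fgf2 (log2 fold change -1.93 ± 0.51, adjusted p = 0.00642) and Fgf21 (-1.72 ± 0.39, adjusted p = 0.00231) were lower with siHsp90aa1. Fgf10 (1.79 ± 0.16, adjusted p = 4.2e-07) and Fgfr2 (0.75 ± 0.13, adjusted p = 0.000273) were higher with it. Fgfrl1 measured 24.9, 26.0 and 26.4 CPM with siHsp90aa1, against 33.7, 32.6 and 32.7 CPM with siHsp90ab1. It passed under the replicate block (-0.36 ± 0.14, adjusted p = 0.0462) and in a fit of these groups alone (adjusted p = 0.00287), but not in the fit of all groups (-0.36 ± 0.15, adjusted p = 0.0691). In CAF 3 of 8 tested members were called, against 26.3% of all tested genes. Fgf10 (0.50 ± 0.15, adjusted p = 0.0191) and Fgfr2 (0.42 ± 0.13, adjusted p = 0.0232) were higher and Fgfrl1 (-0.41 ± 0.15, adjusted p = 0.047) lower with siHsp90aa1. None of the 3 calls held when either replicate 1 or replicate 2 of CAF with siHsp90ab1 was left out, and leaving out any library of CAF with siHsp90aa1 left 1 of the 3.

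**Figure D5:**
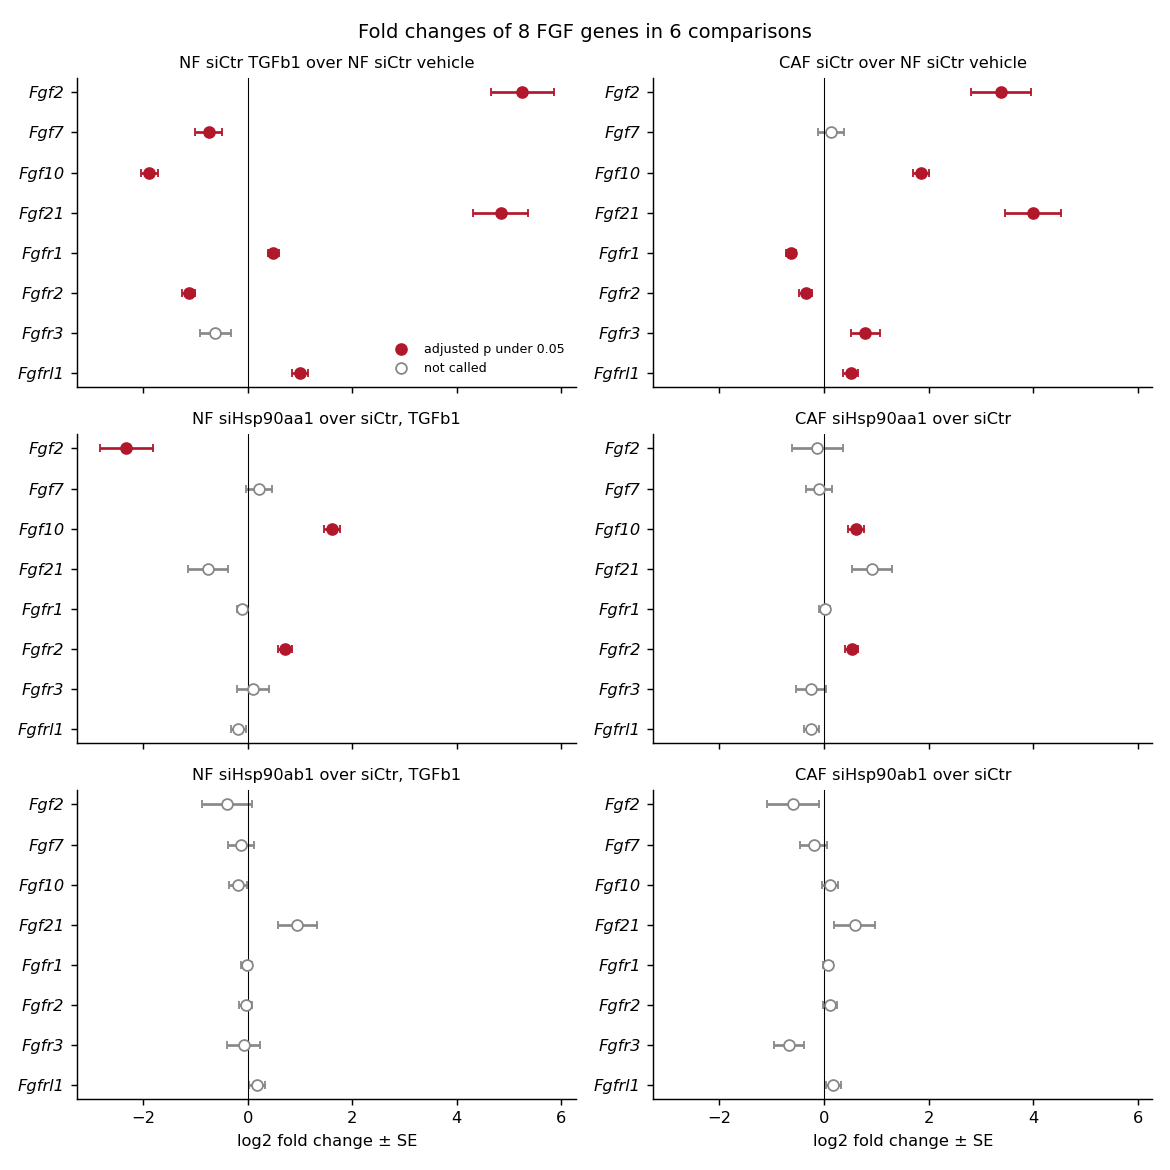
Points give the log2 fold change of the 8 tested members in 6 comparisons, with bars of 1 SE; filled red points passed at an adjusted p under 0.05. Fgf2 and Fgf10 lie on opposite sides of 0 with TGFb1 (5.25 and -1.88) and with siHsp90aa1 in NF (-2.32 and 1.61), and on the same side for CAF over NF (3.39 and 1.85). The opposite changes with TGFb1 were known when the members were chosen. The comparisons of siHsp90aa1 in NF and of CAF over NF share libraries with that of TGFb1.

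Across all 7 groups, Fgf2 stood highest in NF with TGFb1 (74.6 ± 18.7 CPM), next in NF with TGFb1 and siHsp90ab1 (57.0 ± 16.8 CPM), whose ranges overlapped. CAF controls, CAF with siHsp90aa1, NF with TGFb1 and siHsp90aa1, and CAF with siHsp90ab1 followed, with means from 13.6 to 20.4 CPM and overlapping neighbours. NF with vehicle stood apart below them, at 1.93 ± 1.16 CPM (SD, n = 3 each). Fgf10 was ordered otherwise: CAF with siHsp90aa1 (94.8 ± 11.4 CPM) stood apart above the other CAF groups, then NF with vehicle (17.3 ± 1.45 CPM) overlapped with NF with TGFb1 and siHsp90aa1 (14.3 ± 2.55 CPM). NF with TGFb1 (4.69 ± 0.985 CPM) and NF with TGFb1 and siHsp90ab1 (4.14 ± 0.0784 CPM) overlapped at the bottom. Within groups the replicate numbers were not alike for every member. Fgf7 was above its group mean in replicate 1 in 7 of 7 groups and in replicate 3 in 0 of 7. Fgf2 was above it in replicate 1 in 6 of 7 groups and in replicate 3 in 1 of 7, with a mean log2 deviation of -0.68 in replicate 3. Fgf10 showed mean deviations of at most 0.06 in size for any number.

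The genes whose pattern over the 21 libraries was most like that of Fgf2 were Inhba, Pmepa1, Gm22, Sema7a and Sorcs2. The measure was the root mean square difference of log2 CPM after each gene was centred on its own mean. It was 0.66 for Inhba, 0.70 for Pmepa1, 0.71 for Gm22 and Sema7a and 0.78 for Sorcs2, against a spread of Fgf2 around its own mean of 1.75. For Fgf10 the nearest were Ephx1 (0.27), Ugt1a7c (0.32), Arhgap18 (0.35), 2900005J15Rik (0.37) and St3gal1 (0.38), against its own spread of 1.72. These genes were picked for likeness over the same libraries, so close values follow from the pick. Inhba, which encodes the activin A subunit, averaged 17.4 CPM in NF with TGFb1 and siHsp90aa1, 72.4 CPM in NF with TGFb1 and 3.02 CPM in NF with vehicle. In CAF Inhba averaged 29.5 CPM with siHsp90aa1 and 52.3 CPM with control siRNA, against 18.6 and 20.4 CPM for Fgf2. Ephx1, an epoxide hydrolase gene, averaged 14.4 CPM in NF with TGFb1 and siHsp90aa1, 5.80 CPM in NF with TGFb1 and 15.9 CPM in NF with vehicle. In CAF Ephx1 averaged 114 CPM with siHsp90aa1 and 75.6 CPM with control siRNA, against 94.8 and 62.3 CPM for Fgf10.

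The remaining FGF family genes were mostly silent. Of 21 listed, 4 passed the filter: Fgf9, Fgf11, Fgf13 and Fgfbp3. Fgf13, an intracellular member of the family, had 66, 23 and 31 counts in CAF controls, against 1, 0 and 0 counts in NF with vehicle. Fgf9 had 0, 0 and 1 counts in NF with TGFb1 and 0, 0 and 1 counts in CAF controls, against 8, 10 and 25 counts in NF with vehicle. NF with TGFb1 and siHsp90aa1 had 11, 2 and 4 counts of Fgf9. Fgf13 passed the filter through the CAF groups and Fgf9 mainly through NF with vehicle, so these counts are given as a description with no test. Fgfbp3, which encodes an FGF-binding protein, averaged 5.86 ± 2.09 CPM in CAF controls, against 1.57 ± 0.376 CPM in NF with vehicle (log2 fold change 1.91 ± 0.26, adjusted p = 4.4e-06). With TGFb1 Fgfbp3 averaged 1.95 ± 0.211 CPM in NF and was not called against NF with vehicle (adjusted p = 0.391).

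Heparan sulphate carriers and the enzymes that build or modify the chains were more often called higher than lower in the comparisons given here. Of 22 tested genes 14 were higher and 2 lower in CAF controls than in NF with vehicle, with a median log2 fold change of 0.46 against -0.00 over all tested genes, 61.6% of which were called. Sulf1, Hs3st3a1 and Hs3st1, among the 14, were all but absent from NF and passed the filter through CAF. Their calls thus follow in part from the filter. They averaged 10.8, 2.31 and 0.457 CPM in CAF controls, against 0.0434, 0.00552 and 0.0138 CPM in NF with vehicle. With TGFb1 in NF 7 were higher and 3 lower, with a median log2 fold change of 0.13 against -0.03 over all tested genes, 29% of which were called. Gpc4, a glypican core protein gene, averaged 108 ± 9.34 CPM in CAF controls, against 17.4 ± 0.880 CPM in NF with vehicle (log2 fold change 2.63 ± 0.13, adjusted p = 5.3e-12). Hs3st3b1, a sulphotransferase gene, averaged 9.90 ± 2.68 CPM against 0.369 ± 0.156 CPM (4.72 ± 0.31, adjusted p = 3.1e-10), and Gpc6 averaged 50.9 ± 5.05 CPM against 8.32 ± 1.13 CPM (2.61 ± 0.18, adjusted p = 5.7e-10). With TGFb1, Sdc3, a syndecan gene, averaged 199 ± 15.2 CPM, against 64.5 ± 15.4 CPM with vehicle (1.63 ± 0.12, adjusted p = 2.4e-08). Ext1, a chain polymerase gene, averaged 358 ± 38.6 CPM, against 133 ± 10.6 CPM (1.43 ± 0.19, adjusted p = 1.6e-05), and Gpc2 rose by 0.77 ± 0.09 (adjusted p = 3.6e-06). With siHsp90aa1 7 were higher and 3 lower in CAF (median 0.12 against 0.03 over all tested genes, 25.4% of which were called), and 6 higher and 2 lower in NF with TGFb1 (median 0.01 against 0.01, with 28.3% called). The 5 higher in both were Ext2, Gpc6, Hspg2, Sdc2 and Sulf2, of which Sulf2 in CAF was not called without control replicate 2 or knockdown replicate 3 (adjusted p = 0.0541 and 0.0549).

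Of 20 adaptor and signal transducer genes 9 were higher and 3 lower in CAF controls than in NF with vehicle (median log2 fold change 0.16 against -0.00 over all tested genes), a called share near the 61.6% of all tested genes. With TGFb1 in NF 9 were higher and 1 lower (median 0.15 against -0.03), where 29% of all tested genes were called. Cbl, a ubiquitin ligase gene that ends receptor signalling, had log2 fold changes of 0.64 ± 0.10 in CAF (adjusted p = 3.7e-05) and 0.61 ± 0.10 with TGFb1 (adjusted p = 0.000245). Map2k1, the gene of the kinase above ERK, rose by 0.52 ± 0.09 in both (adjusted p = 6.3e-05 and 0.000236). Frs2, the docking protein of FGF receptors, was higher in CAF by 0.61 ± 0.11 (adjusted p = 7.3e-05), and Shc1, another adaptor gene, rose with TGFb1 by 0.39 ± 0.10 (adjusted p = 0.00519). The Shc1 call was lost in a fit of these groups alone (adjusted p = 0.0733). With siHsp90aa1 4 were higher and 4 lower in CAF (median 0.04 against 0.03, with 25.4% of all tested genes called), and 0 higher and 5 lower in NF with TGFb1 (median -0.12 against 0.01), a called share near the 28.3% of all tested genes. Nras, a RAS gene, fell by 0.86 ± 0.10 in NF (adjusted p = 1.5e-05) and by 0.65 ± 0.10 in CAF (adjusted p = 0.000196).

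The list of feedback and target genes of FGF-ERK signalling held 20 tested genes. In CAF controls against NF with vehicle 6 were higher and 6 lower, a called share near the 61.6% of all tested genes. The median log2 fold change was -0.24 against -0.00 over all tested genes. With the replicate block 7 were higher and 9 lower, where 10098 of 15230 tested genes were called. Spry1, a feedback inhibitor gene, averaged 22.5 ± 1.19 CPM in CAF controls, against 1.57 ± 0.395 CPM in NF with vehicle (log2 fold change 3.85 ± 0.21, adjusted p = 3.0e-11). Flrt2, a membrane protein gene, was higher in CAF by 2.85 ± 0.20 (adjusted p = 9.6e-10), while Myc was lower, at -1.36 ± 0.17 (adjusted p = 1.4e-06). With TGFb1 in NF 1 was higher and 1 lower, where 29% of all tested genes were called. With the replicate number as a block 4 were higher and 6 lower, where 5542 of 15230 tested genes were called. Spred2, another feedback inhibitor gene, rose by 0.71 ± 0.14 (adjusted p = 0.000889), and Il17rd, which encodes the inhibitor SEF, was lower (-0.46 ± 0.13, adjusted p = 0.0113), though not without replicate 3 of NF with vehicle (adjusted p = 0.0578). Etv1, an ETS factor gene, averaged 12 ± 1.94 CPM with TGFb1, against 21.1 ± 4.45 CPM with vehicle (adjusted p = 0.0522, and 0.00329 with the block).

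With siHsp90aa1 0 of these 20 genes were higher and 5 lower in NF with TGFb1, and 0 were higher and 7 lower in CAF. Of all tested genes 28.3% were called in NF and 25.4% in CAF, so the share called in NF was near that of all genes. With the replicate number as a block 1 was higher and 10 lower in NF, and 2 higher and 11 lower in CAF. The block called 5681 of 15230 tested genes in NF and 5198 in CAF. The median log2 fold change was -0.50 in NF and -0.67 in CAF, against 0.01 and 0.03 over all tested genes. The 5 genes lower in both were Dusp4, Etv4, Etv5, Il17rd and Spred2, which are named here after their values were seen. Spred2 averaged 64.3 ± 3.83 CPM with siHsp90aa1, against 130 ± 17.3 CPM with control siRNA, in NF (log2 fold change -1.01 ± 0.14, adjusted p = 6.6e-05), and 35.3 ± 3.16 CPM against 59.1 ± 8.78 CPM in CAF (-0.74 ± 0.14, adjusted p = 0.001). Etv4, an ETS factor gene, averaged 34.2 ± 5.07 CPM with siHsp90aa1, against 81.2 ± 11.7 CPM with control siRNA, in NF (-1.24 ± 0.34, adjusted p = 0.0114), and 22.7 ± 7.67 CPM against 59.6 ± 26.3 CPM in CAF (-1.39 ± 0.35, adjusted p = 0.00677). Etv5 was lower by 1.34 ± 0.32 in NF (adjusted p = 0.00478), and in CAF its call (adjusted p = 0.0404) was lost without any single CAF library of these groups but replicate 3 of the controls, with an adjusted p up to 0.254. Dusp4, a MAP kinase phosphatase gene, fell by 1.39 ± 0.40 in NF (adjusted p = 0.0142) and by 1.54 ± 0.42 in CAF (adjusted p = 0.011). Dusp4 was not called in NF without replicate 2 of the knockdown (adjusted p = 0.0701), nor in CAF without control replicate 1 (0.0836) or knockdown replicate 3 (0.0604) and in a fit of those groups alone (0.0623). The call of Il17rd in CAF (adjusted p = 0.0298) was lost without any of 3 single libraries (adjusted p up to 0.12). With siHsp90ab1 edgeR called 0 of the 20 in CAF and 0 in NF. The block called 1 lower in CAF and 0 in NF, where it called 360 and 902 of 15230 tested genes. DESeq2 called 1 in CAF and 0 in NF, where it called 322 and 709 of all tested genes. At an unadjusted p under 0.05 there were 3 in CAF and 4 in NF, against 1341 and 1928 of all 15230 tested genes. These lists contain genes that other growth factors also control, and no part of the change was assigned to the FGF genes.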

How the data were processed

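The authors' deposited table holds estimated counts per gene; the submitters' processing notes name STAR, Salmon and GRCm38 without versions. These expected counts were not normalised, and 5.45% of values were not whole (tolerance 0.01) before rounding here. The authors' deposited TPM values, scaled by transcript length, gave levels between genes. Tests used edgeR 4.0.16 (R 4.3.3): TMM, filterByExpr (minimum count 10, total 15), glmQLFit and glmQLFTest over 21 libraries with no block, and Benjamini-Hochberg adjustment within each of 11 comparisons. An SE is the log2 fold change over the square root of F. Alternatives were DESeq2 1.42.0 (size factors, or its Wald test), no filter on low counts, the compared groups alone, a replicate block, and leaving out each library. The fit was also run on simulated counts with known changes, drawn with no effect of the replicate number. That run does not check the p-values under a spread shared by replicate number. The labels call the replicate number a batch, so numbers pair libraries. Deviations from group means over 5852 genes correlated at a mean r of 0.348 in 63 same-number pairs (over 0.1 in 54). For other numbers the mean r was -0.166, a value that follows largely from centring each group on its own mean. Within groups the chi-square divided by its degrees of freedom was between 12.5 and 108, so no library was taken as a repeat of another, and this spread rather than depth limits precision. Gene positions come from GENCODE vM21, which held 98.8% of the gene IDs. Gpc2 stands on 2 rows, of which that with more counts was used. The stranded kit is in the labels, but the strand setting of the counting is not given, so reads of Fgf2 and Nudt6 may be mixed. Named genes are the members, the siRNA targets and Nudt6. Added to these are the 3 smallest p of each list with TGFb1 and between CAF and NF. The 5 genes most like Fgf2 and Fgf10 are named too. Genes named outside this rule, with siHsp90aa1 or for passing the filter through CAF, were picked after their values were seen. The members, the lists and the comparisons were chosen with earlier results of these data known. Some genes of the lists are counted but not reported by name here.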

Additional observations from a re-analysis of the deposited data

Results flagged for a closer look

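The effect of siHsp90aa1 on Fgf10 differed between the fibroblasts by a test of the difference itself. Fgf10 rose by 0.61 ± 0.15 on the log2 scale in CAF with vehicle and by 1.61 ± 0.16 in NF with TGFb1, a difference of -1.0 ± 0.22 (edgeR's quasi-likelihood test, adjusted p = 0.0118). It was higher with the knockdown in 3 of 3 pairs in each. The starting levels differed too, at 62.3 ± 12.2 CPM in CAF controls and 4.69 ± 0.985 CPM in NF with TGFb1 (SD, n = 3 each), and fibroblast source and TGFb1 cannot be told apart. The low Fgf10 of NF with TGFb1 was known when the members were chosen, so this difference is not independent of that choice. Over the alternatives the adjusted p of this difference ran from 0.00044 to 0.0414.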

How the results depend on the processing

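Members called kept to within 1.5 times their number under most alternatives. The exceptions were siHsp90ab1 in NF with TGFb1 (0 members, 1 in a fit of the compared groups alone), siHsp90aa1 over siHsp90ab1 in CAF (3 members, 1 in that fit, and 0 to 3 when single libraries were left out), siHsp90aa1 with TGFb1 over vehicle in NF (5 members, 3 to 6 when single libraries were left out) and the siHsp90aa1 effect in CAF minus NF (1 member, 2 with DESeq2's Wald test, 3 with the replicate block, 1 to 2 when single libraries were left out). Uncalled values changed sign when single libraries were left out: Fgf2 with siHsp90aa1 in CAF (-0.48 to 0.24), Fgf10 with siHsp90ab1 in CAF (-0.02 to 0.27) and Fgf2 in the siHsp90ab1 effect of CAF minus NF (-0.69 to 0.22). The value of Fgf13 with TGFb1 in NF, which rests on 1 count, ran from -2.21 to 0.00. Of all genes, 409 were called with siHsp90ab1 in NF (709 with DESeq2, 902 with the block), 137 in CAF (322 with DESeq2, 360 with the block, 5 in a fit of those groups alone), 832 in the siHsp90aa1 effect of CAF minus NF (1341 with DESeq2, 1871 with the block) and 1 in that of siHsp90ab1 (18 with DESeq2, 3 with the block). When single libraries were left out these counts ran from 157 to 329, 44 to 102, 453 to 951 and 0 to 2, and the shares of all genes called move with them. With siHsp90aa1 in CAF 3867 were called (2460 to 4426 without single libraries, lowest without control replicate 2), and with siHsp90aa1 over siHsp90ab1 in CAF 4006 (2478 to 4285, lowest without siHsp90ab1 replicate 2). The cause was not tested. Beside the results named in the report, the replicate block changed no other member's call. DESeq2's scaling moved the median of all genes by under 0.1 on the log2 scale. Fgf1, Fgf18 and most other FGF family genes had too few counts to be tested, and Fgf21 rests on at most 201 counts in a library.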
